A study of Mus musculus with 7 samples.

Results

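The nuclear genome encodes most subunits of the mitochondrial respiratory chain, and 82 such genes were followed in the atrioventricular canal of mouse embryos with and without Hand2. They were chosen by symbol: the Ndufa, Ndufb, Ndufc, Ndufs and Ndufv genes of complex I with Ndufab1, the 4 Sdh genes of complex II, the Uqcr genes and Cyc1 of complex III, the Cox5 to Cox8 genes of complex IV, the Atp5 genes of complex V, and Cycs, which encodes cytochrome c. Of 23284 gene rows in the count files, 84 matched these symbols and 82 had at least 10 reads over the 7 libraries. The 2 left out, Ndufs5 and Cox8c, were listed at 0 in every library. A listed 0 does not show that a gene was silent, since reads that align to several places were not counted. The lowest members were Cox7b2 with 60 reads in all and Cox8b with 566. Complex I had 36 members, complex II 4, complex III 9, complex IV 15 and complex V 17. After the filter on low counts 81 members were tested, and Cox7b2 was not. Ndufa4l2 was left out by the rule, and the subunits encoded by mitochondrial DNA and the 2 forms of Cox4 lay outside it.

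Tissue was the atrioventricular canal, the constriction between atrium and ventricle where valves begin to form, cut by hand from hearts of outbred NMRI embryos of 18 to 23 somites (titled embryonic day 9.5, though the stage label is slightly earlier). One group was homozygous for the Hand2 d allele, a germline deletion of the whole coding part made by Cre (called null here, 4 libraries, replicates 1 to 4), and the other was wild type (3 libraries, replicates 2 to 4). Each library was made from 4 pooled canals, with pools balanced for somite stage and sex. The deletion is present in all cells of the embryo, and the pools mix muscle, endocardium, cushion cells and blood.

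Electrons from NADH enter the chain at complex I and those from succinate at complex II, and pass through ubiquinone to complex III, through cytochrome c to complex IV, and there to oxygen. Complexes I, III and IV pump protons, and complex V, the ATP synthase, uses their return to make ATP. Each large complex joins a small catalytic core to many supernumerary (accessory) subunits, which are mostly short proteins made from short mRNAs. In the embryonic heart the chain is built up as the muscle matures, and several complex IV subunits exist in a ubiquitous and a striated-muscle form.

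The libraries held 27905601 to 44860753 reads in genes. Hand2, the deleted gene, had 7 to 26 reads in the null pools and 1194 to 2123 in the wild-type pools, so all 7 matched their labels. Heart muscle markers were abundant, with a summed level of 33502 to 38988 CPM (each gene's reads scaled to a common library total of reads in genes) in null and 31715 to 35787 CPM in wild type, and 1 of 10, Myh7, was called (higher in null). Endothelial markers summed to 429 to 475 CPM in null and 298 to 343 CPM in wild type (3 of 8 called higher), and cushion mesenchyme markers to 101 to 142 CPM and 166 to 388 CPM (4 of 6 called lower). Red cell markers summed to 5610 to 14528 CPM and 9343 to 22068 CPM (1 of 7 tested called lower, and Hba-a1 at 0 throughout), and foregut and neural markers stayed under 20 CPM in sum, with Sox17 called higher among 4 tested foregut markers. Macrophage markers summed to 8.55 to 13.7 CPM in null and 12.3 to 13.6 CPM in wild type (of 4, Mrc1 called higher and Lyz2 lower), and epicardial markers to 57.1 to 70.0 CPM and 40.6 to 59.8 CPM (0 of 5 called). For comparison, 4.11% of all genes tested were called higher and 2.13% lower. The part of these cell types in the results below was not tested. In bulk tissue fewer cells of a type and less RNA per cell cannot be told apart.

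Summed over the 82 members, respiratory chain RNA was a smaller share of the null libraries than of the wild-type ones, while few single members passed the test. The 82 members together took 3.49%, 3.14%, 3.36% and 3.00% of the reads in genes in null replicates 1 to 4, and 4.11%, 4.27% and 3.81% in wild-type replicates 2 to 4. All null libraries thus lay below all wild-type libraries, and their summed level averaged 32482 ± 2155 CPM (SD, n = 4) in the null and 40619 ± 2366 CPM (SD, n = 3) in wild type, a ratio of 0.800. The log2 fold change (null over wild type) was under 0 for 72 of the 81 tested members, with a median of -0.36, against a median of 0.02 over all 14290 genes tested, of which 47.7% were under 0. With an offset for transcript length the members' median was -0.15 (68 of 81 under 0), and with the share of reads aligned to several places as a covariate, which does not overlap between genotypes, it was -0.02 (47 of 81 under 0). For 49 members every null library was below every wild-type library in CPM, a pattern seen in 10.3% of all genes tested, and for no member was it the reverse (11.6% of all genes). With TMM-scaled CPM 41 members lay lower without overlap, against 10.6% of all genes. Members share the same libraries, so these counts are not independent observations.

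Few of these differences passed the test one by one. With edgeR and an adjusted p under 0.05, 4 of 81 members were called lower, where 2.13% of all genes tested were, and 0 were called higher, where 4.11% of all genes were. At an unadjusted p under 0.05 there were 47 lower and 0 higher, against 10.9% and 13.5% of all genes, and DESeq2 called 24 lower and 0 higher, against 5.42% and 7.01% of the genes to which it gave an adjusted p. The count of 4 moved with single libraries, and so did the share of all genes called lower. It was 0 without wild-type replicate 2 or 3 (0.318% and 0.463% of all genes), and 2 without null replicate 1, 2 or 4 (0.64%, 1.07% and 2.05%). Without null replicate 3 it was 26 (4.58%), with 1 higher, Sdha (6.65%). With RLE or upper-quartile scaling it was 9 or 14 (2.44% and 2.62%). The remaining 77 tested members lay between log2 fold changes of -0.66 and 0.42, with standard errors (SE) of 0.121 to 0.402. Of these, 9 had an adjusted p between 0.05 and 0.06 by edgeR: Uqcrq, Ndufab1, Ndufs8, Ndufb2, Ndufa11, Cyc1, Ndufa12, Ndufb6 and Cox7c, with log2 fold changes from -0.66 to -0.44.

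**Figure D1:**
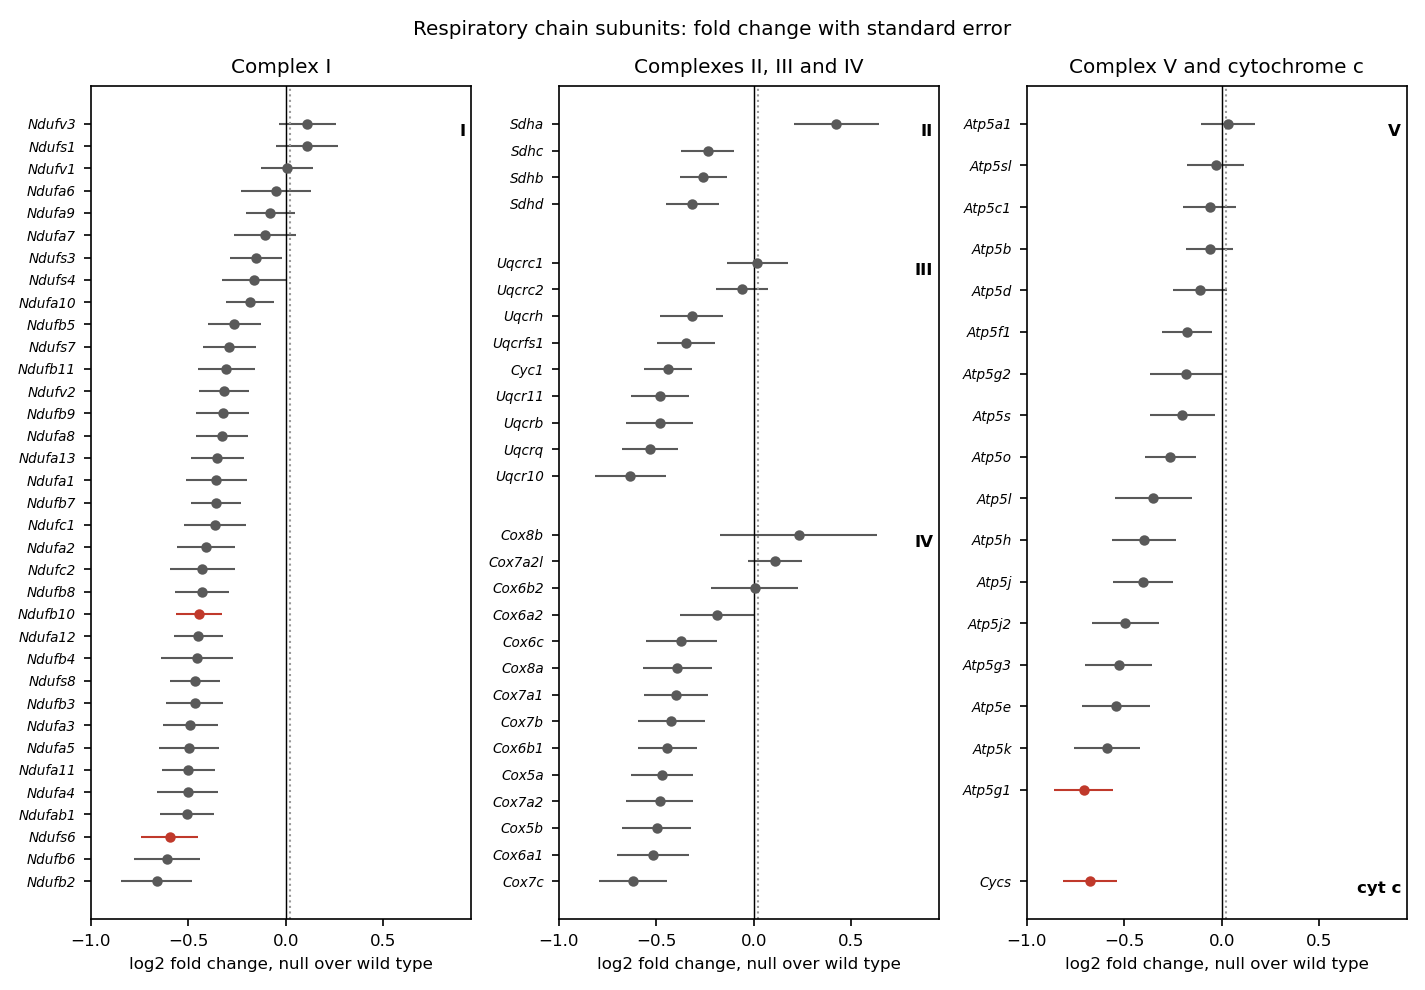
Log2 fold change (null over wild type) of the tested members that are reported by name, with its SE, by complex; the dotted line is the median of all genes tested (0.02), and red points passed an adjusted p under 0.05. The 4 red points are Ndufs6, Ndufb10, Atp5g1 and Cycs, and most points lie under 0.

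In CPM the largest decrease among the 4 was that of Cycs, the mobile electron carrier between complexes III and IV, which also triggers caspase activation when released. Its level was 2126, 1785, 1761 and 2012 CPM in null replicates 1 to 4 and 2922.5, 3283 and 2894 CPM in wild-type replicates 2 to 4. The groups did not overlap, and the means were 1921 ± 177 CPM (SD, n = 4) and 3033 ± 217 CPM (SD, n = 3), a ratio of 0.633. The log2 fold change was -0.68 (SE 0.138, edgeR adjusted p = 0.0148). Without wild-type replicate 2 or 3 the adjusted p was 0.0698 or 0.0962, at log2 fold changes of -0.71 and -0.60. Of the 50-base windows of the Cycs transcript, 28.5% also occur in transcripts of other genes. Reads that align to several places were not counted, so part of its reads may be missing.

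Atp5g1 encodes subunit c, which forms the turning ring of the ATP synthase. It had 552, 529, 495 and 467 CPM in the null and 862, 940 and 668 CPM in wild type. Again no null library reached the lowest wild-type one, wild-type replicate 4, and the log2 fold change was -0.71 (SE 0.15, edgeR adjusted p = 0.0175). The call was lost without wild-type replicate 2 (0.101) or 3 (0.113).

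Ndufs6 and Ndufb10, accessory subunits of complex I, were the other 2 called members. Ndufs6 had 216, 203, 238 and 201 CPM in the null and 353, 339 and 267 CPM in wild type (null over wild type -0.59 in log2, SE 0.146, edgeR adjusted p = 0.0353). Ndufb10 had 178.5, 184, 172 and 169 CPM against 239, 243 and 226 CPM (log2 fold change -0.44, SE 0.118, edgeR adjusted p = 0.0473), and its SD, 6.76 and 9.03 CPM around means of 176 and 236 CPM, was the smallest for its level among the 4. Neither call was firm: Ndufs6 kept it in 2 and Ndufb10 in 1 of the 7 fits with a library left out, while Cycs and Atp5g1 kept theirs in 5 each.

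**Figure D2:**
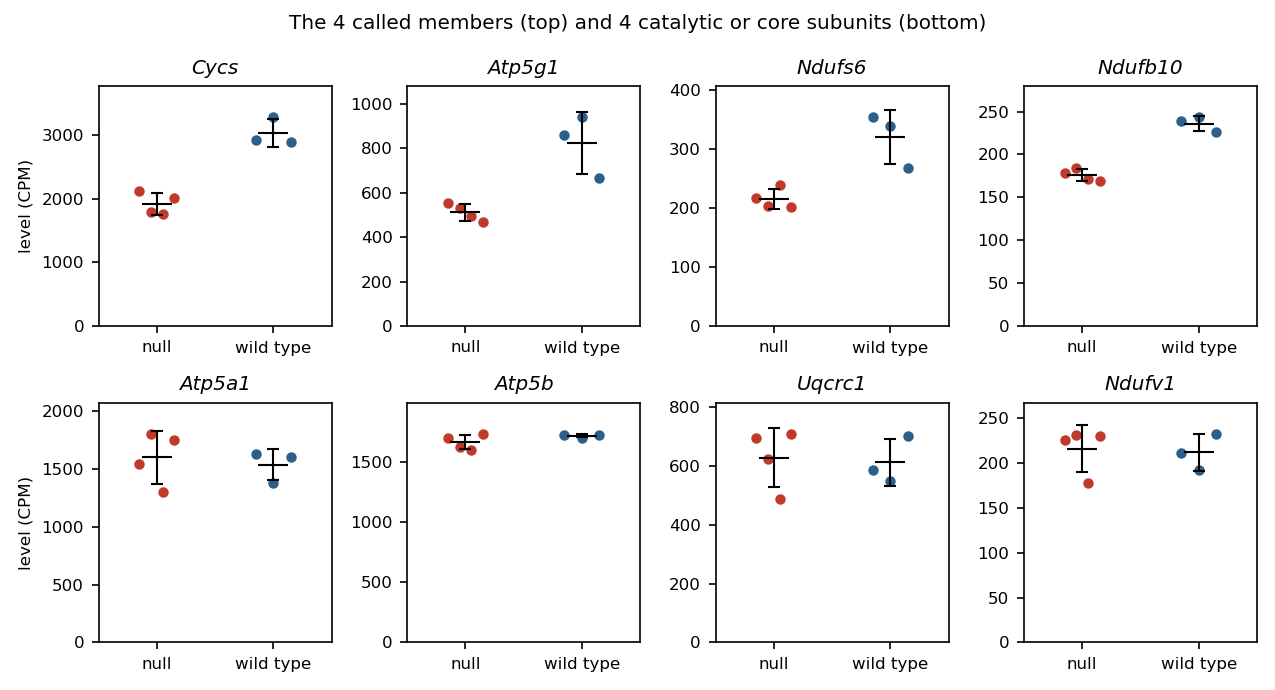
Level in CPM (axis from 0) in each library for the 4 called members (top row) and for 4 catalytic or core subunits with log2 fold changes near 0 (bottom row, picked after their values were seen); dashes with bars are means and SD. In the top row the null points lie below all wild-type points, and in the bottom row the groups overlap.

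Because Cycs and Atp5g1 had the firmest calls, the 250 bases before their transcription starts are shown, from RefSeq on GRCm38.p6, each read 5′ to 3′ on its gene's minus strand. Capitals mark letters of the motifs searched, which in these stretches were the core of the site of nuclear respiratory factor 1, NRF1 (GCATGCG), a known activator of respiratory genes, and the hypoxia response core (ACGTG).
Cycs promoter (chr6:50566570-50566819): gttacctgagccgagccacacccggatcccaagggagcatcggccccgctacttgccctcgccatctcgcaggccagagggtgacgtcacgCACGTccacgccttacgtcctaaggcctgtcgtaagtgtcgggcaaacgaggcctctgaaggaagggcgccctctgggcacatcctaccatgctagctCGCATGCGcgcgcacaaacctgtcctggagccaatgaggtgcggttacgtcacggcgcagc
Atp5g1 promoter (chr11:96075632-96075881): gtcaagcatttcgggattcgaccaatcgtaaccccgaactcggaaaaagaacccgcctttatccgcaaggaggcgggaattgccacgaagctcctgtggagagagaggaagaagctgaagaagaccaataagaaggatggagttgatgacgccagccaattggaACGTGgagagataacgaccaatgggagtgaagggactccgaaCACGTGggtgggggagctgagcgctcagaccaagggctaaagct
The Cycs stretch holds the NRF1 core read on both strands in overlapping letters, and 1 hypoxia response core further from the start. The Atp5g1 stretch holds no NRF1 core and has the hypoxia core at 2 places, 1 of them read on both strands. A match describes letters only and does not show that a factor binds there.

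Over the 70 members with an entry in the RefSeq promoter table (250 bases before to 50 after the start, both strands), the NRF1 core stood in 12 (17.1%, against 4.0% of all 27025 genes in the table). The core of the ETS factor GABP (CCGGAAG) stood in 16 (22.9% against 9.9%), that of YY1 (AAGATGG) in 12 (17.1% against 7.3%), that of the ERR receptors (AAGGTCA) in 7 of the 70 (5.4% of all genes) and the hypoxia core in 20 (28.6% against 21.8%). The median log2 fold change was -0.38 with and -0.36 without the NRF1 core, -0.40 and -0.35 for GABP, -0.38 and -0.36 for YY1, -0.53 and -0.36 for the ERR core (7 and 62 tested members), and -0.28 and -0.40 for the hypoxia core. The 7 with the ERR core had transcripts of 371 to 1231 nt. Their values ran from -0.36 to -0.10 with an offset for transcript length. With the share of reads aligned to several places as a covariate they ran from -0.18 to 0.24. No motif contrast was tested, nor set apart from transcript length.

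In complex I, 33 of 36 members were under 0, against 47.7% of all genes tested, and the median was -0.36 in log2. Lower levels in the null without overlap were seen for 25, against 10.3% of all genes tested. The summed level was 9535, 8761, 9293 and 7954 CPM in null replicates 1 to 4 and 11228, 11850 and 10296 CPM in wild-type replicates 2 to 4, a ratio of the means of 0.799, without overlap. The 29 accessory subunits had a median of -0.41 and the 7 subunits of the catalytic core, which carry the flavin, the iron-sulfur clusters and the quinone site, one of -0.15. With the offset for transcript length these medians were -0.20 and -0.07. With the share of reads aligned to several places as a covariate they were -0.06 and -0.22. In the core, Ndufs8 (-0.46) and Ndufv2 (-0.31) did not overlap between genotypes, while Ndufs7, Ndufs3, Ndufv1 and Ndufs1 ran from -0.29 to 0.11 and overlapped. Ndufv1, which binds NADH, had 226, 231, 178 and 230 CPM in the null against 211, 192 and 232 CPM. The lowest value of the complex was that of the accessory subunit Ndufb2 (-0.66, SE 0.182, edgeR adjusted p = 0.0525), at 60.1 to 94.5 CPM in the null and 101 to 130 CPM in wild type. Ndufb6, another subunit of the membrane arm, had 199, 146, 202 and 163 CPM against 285, 295 and 225 CPM (-0.61, SE 0.171). Ndufab1, the mitochondrial acyl carrier protein, had 297, 248, 286 and 253 CPM against 382, 405 and 355 CPM (-0.51, SE 0.138, edgeR adjusted p = 0.0514). The 6 accessory subunits whose groups overlapped were Ndufa6, Ndufa7, Ndufa9, Ndufb5, Ndufs4 and Ndufv3, with fold changes in log2 from -0.26 to 0.11. The highest was that of Ndufv3, a subunit next to the NADH site (0.11, SE 0.145), with overlapping groups. Ndufa4, which later work places in complex IV, had 734, 620, 764 and 573 CPM in the null against 947, 1040 and 842 CPM (log2 fold change -0.50, SE 0.157, edgeR adjusted p = 0.0779).

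Complex II, the succinate dehydrogenase that also serves the citric acid cycle, stood nearer to 0 in sum. It had 1642, 1755, 1280 and 1640 CPM in the null and 1755, 1606 and 1656 CPM in wild type, with overlap. Sdhd, which anchors the complex in the membrane, had 446 to 550 CPM in the null and 554 to 676 CPM in wild type (a log2 ratio of -0.31, SE 0.135), and the iron-sulfur subunit Sdhb -0.26 (SE 0.121), both without overlap. The other anchor, Sdhc, had -0.24 with overlap. Sdha, the flavoprotein, had the highest fold change of all members, 0.42 (SE 0.220, edgeR adjusted p = 0.260), with 461, 607.5, 278 and 542.5 CPM in the null against 329, 287 and 421 CPM. Null replicate 3 lay under all wild-type libraries, and without it Sdha was called higher (0.60, adjusted p = 0.0337).

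In complex III the members split by kind. The 5 small subunits Uqcrb, Uqcrh, Uqcrq, Uqcr10 and Uqcr11 had a median of -0.48, and their sum was 2668, 2139, 2683 and 2080 CPM against 3389, 3661 and 2954 CPM, without overlap. Uqcr10 was lowest at -0.63 (SE 0.182, edgeR adjusted p = 0.0604), with 367 to 540 CPM in the null and 575 to 772 CPM in wild type. Cyc1 and Uqcrfs1, which carry haem and the Rieske iron-sulfur centre, had -0.44 and -0.35, Cyc1 without overlap. The core proteins Uqcrc1 and Uqcrc2, large subunits related to mitochondrial processing peptidase, had 0.02 (SE 0.156) and -0.06 (SE 0.132). With the offset for transcript length the medians of the small subunits and the core proteins were -0.21 and -0.02. With the share of reads aligned to several places as a covariate they were 0.03 and -0.15. Uqcrc1 had 693, 622, 487 and 709 CPM in the null against 587, 549 and 703 CPM, and its sign changed with the scaling.

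The nuclear subunits of complex IV surround a core encoded in mitochondrial DNA. Their sum was 5237, 4335, 5650 and 4116 CPM in null and 6493, 7008 and 5864 CPM in wild type, a ratio of the means of 0.749 without overlap, and the median of 14 tested members was -0.41 with none called. Cox7c had the lowest fold change (-0.62, SE 0.174, edgeR adjusted p = 0.0560), at 672, 532, 686 and 522 CPM against 924, 1066 and 757 CPM. Cox5a, Cox5b, Cox6c, Cox7b and the ubiquitous forms Cox6a1, Cox6b1, Cox7a2 and Cox8a lay between -0.52 and -0.37. Cox7a2l, which helps join complexes III and IV into supercomplexes, had 0.11 (SE 0.137) with overlap. Cox7b2, the member not tested, had 0.134 to 0.206 CPM in the null and 0.104 to 0.602 CPM in wild type, where 3 reads correspond to 0.0669 to 0.108 CPM.

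The balance of isoforms in complex IV overlapped between genotypes. Per length, the striated-muscle form Cox6a2 made up 34.1%, 39.0%, 30.8% and 25.6% of Cox6a1 plus Cox6a2 in null replicates 1 to 4, and 28.9%, 25.9% and 27.7% in wild-type replicates 2 to 4. Cox7a1 made up 24.1% to 31.2% of Cox7a1 plus Cox7a2 in the null and 23.2% to 28.6% in wild type. Cox8b was 0.576% to 1.54% of the Cox8 pair in the null and 0.517% to 1.06% in wild type, and Cox6b2, known from testis, 2.41% to 3.20% and 1.58% to 2.53% of the Cox6b pair. Fold changes of these forms were -0.19 (SE 0.187) for Cox6a2, -0.40 (SE 0.164) for Cox7a1, 0.23 (SE 0.402) for Cox8b and 0.01 (SE 0.222) for Cox6b2, whose sign changed with the scaling, and those of their ubiquitous partners were -0.52 (Cox6a1), -0.48 (Cox7a2), -0.39 (Cox8a) and -0.44 (Cox6b1). The difference within a pair was not tested. Cox4i1, the general form of a subunit outside the symbol rule, had -0.13 (SE 0.144), while the low-oxygen form Cox4i2 rose from 21.7 ± 4.16 CPM (SD, n = 3) to 99.2 ± 21.3 CPM (SD, n = 4; log2 fold change 2.18, SE 0.212, edgeR adjusted p = 0.000184). Ndufa4l2, the low-oxygen relative of Ndufa4, rose as well, from 7.77 ± 3.24 CPM (SD, n = 3) to 116 ± 25.3 CPM (SD, n = 4; log2 fold change 3.88, SE 0.301, edgeR adjusted p = 5.39e-05).

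In complex V the parts of the enzyme had different values. Its sum was 12007, 11141, 11617 and 10665 CPM in the null and 13671.5, 13678 and 12709 CPM in wild type, a ratio of the means of 0.851 without overlap. The 6 subunits of the membrane part (Atp5g1, Atp5g2, Atp5g3, Atp5j2, Atp5k and Atp5l) had a median of -0.51. The 4 of the peripheral stalk (Atp5f1, Atp5h, Atp5j and Atp5o) had a median of -0.33. All 4 of them lay lower without overlap, as did 10.3% of all genes tested. The 5 of the F1 head, where ATP is made, had a median of -0.06. With the offset for transcript length these medians were -0.29, -0.15 and -0.06. With the share of reads aligned to several places as a covariate they were 0.12, -0.02 and 0.03. In the head, the catalytic beta subunit Atp5b had 1698, 1623, 1601 and 1732 CPM in null. In wild type it had 1725, 1700 and 1720 CPM (-0.06, SE 0.121). The alpha subunit Atp5a1 had 0.03 (SE 0.138) the gamma subunit Atp5c1 -0.06 (SE 0.135) and the delta subunit Atp5d -0.11 (SE 0.139), all with overlap. The smallest head subunit, epsilon (Atp5e), had -0.54 (SE 0.175) without overlap. Atp5a1 changed sign under several alternatives. Atp5s and Atp5sl, whose products are not subunits of the enzyme proper, were low (12.9 to 19.3 and 27.3 to 35.5 CPM) and overlapped.

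The 3 Atp5g genes encode the same mature subunit c with different import sequences. Besides Atp5g1, Atp5g3 had 728, 587, 792 and 614 CPM against 1040, 1082 and 794 CPM (log2 fold change -0.53, SE 0.170, edgeR adjusted p = 0.0850), and Atp5g2 had 512, 365, 539 and 401 CPM against 568.5, 539 and 426 CPM (-0.18, SE 0.183), with overlap. Per length, Atp5g2 had a larger share of the trio in the null, 35.1% to 38.4% against 30.3% to 32.4%, without overlap. With the shortest annotated coding transcript of each gene as length the shares were 32.6% to 38.6% and 28.4% to 30.8%. Atp5g2 is the least certain of them, since 87.4% of the 50-base windows of its transcript also occur in transcripts of other genes, against 11.6% for Atp5g1 and 0% for Atp5g3, and reads that align to several places were not counted.

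**Figure D3:**
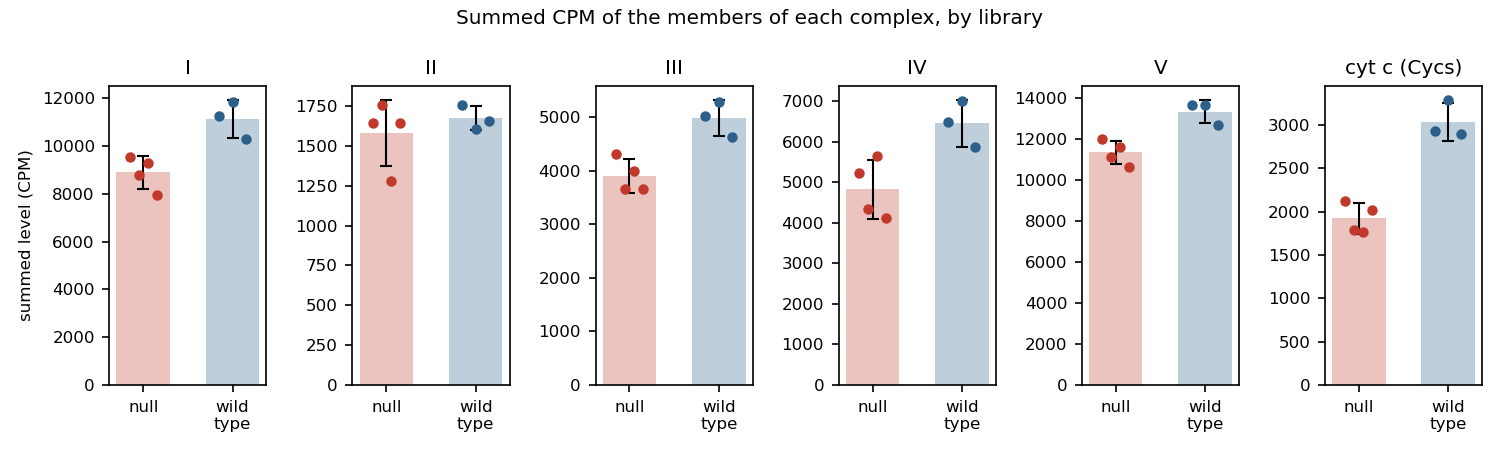
Summed level in CPM of the members of each complex and of Cycs in each library (points), with mean (bars from 0) and SD; red is null, blue wild type, and each panel has its own axis. Groups do not overlap for complexes I, III, IV and V and for Cycs, and they overlap for complex II.

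Per kilobase of transcript (CPM divided by length in kb, mean of 7 libraries), the most abundant members were Uqcrb in complex III at 1651, Atp5o in complex V at 1517, Ndufc1 in complex I at 1379, Cox7c in complex IV at 1365 and Sdhd in complex II at 441. With the shortest coding transcript as length Ndufa4 was first in complex I, at 1928. Atp5o, which links head and stalk, had 1208, 1283, 1211 and 1010.5 CPM in the null against 1386, 1406 and 1396 CPM (log2 fold change -0.26, SE 0.130). The values of Uqcrb, a small matrix-side subunit, and Ndufc1 were -0.48 (SE 0.172) and -0.36 (SE 0.160), both without overlap and neither called.

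Members with short transcripts had lower fold changes than those with long ones, and so had genes outside the chain. The 22 tested members under 600 nt had a median log2 ratio of -0.44 and the 26 from 600 to under 1000 nt one of -0.43, against -0.35 and -0.24 for the 225 and 670 other genes tested of these lengths. From 1000 to under 2000 nt the 23 members had -0.18 and 2899 other genes -0.08, and from 2000 to under 4000 nt 9 members had -0.18 and 5672 other genes 0.08. Across members the rank correlation of fold change with length was 0.39 (Spearman, 81 genes that share 7 libraries), and across other genes 0.18 (14041 genes). With fold changes offset for transcript length in each library, 3 members were called lower, Cycs, Atp5g1 and Ndufab1, against 2.37% of all genes. Under that offset Cycs had -0.78 (edgeR adjusted p = 0.00586) and Atp5g1 -0.80 (0.00853), while Ndufs6 (-0.32, 0.127) and Ndufb10 (-0.22, 0.255) were not called. The length of Atp5g1 is uncertain, as its shortest coding transcript has 596 nt and the transcript used here 4715 nt. That of Ndufab1 is uncertain as well, with 1416 nt and 3479 nt. Ndufab1 had -0.60 under the offset, and in the main fit -0.51 without a call (edgeR adjusted p = 0.0514).

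**Figure D4:**
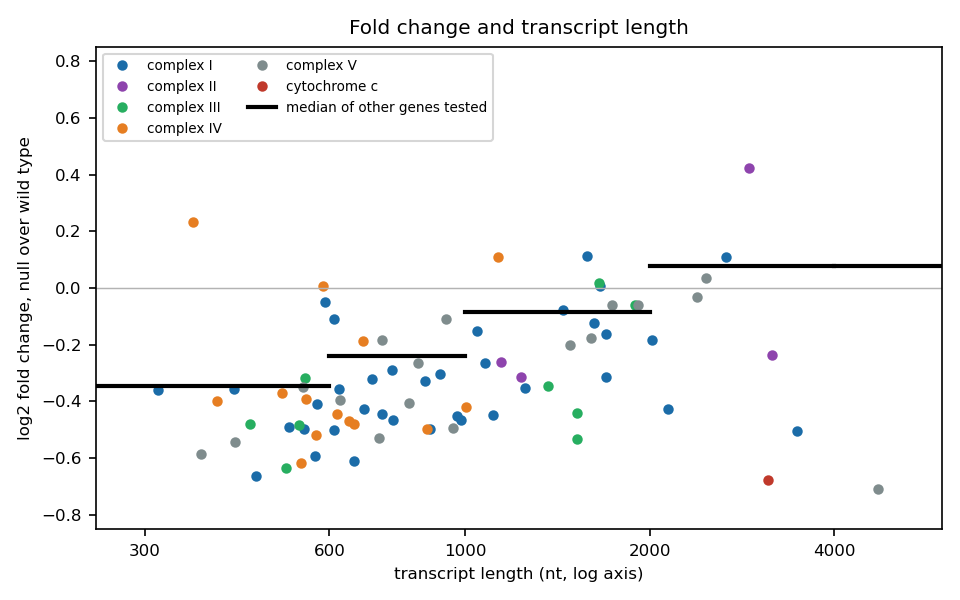
Log2 fold change against transcript length (log axis) for the 81 tested members, coloured by complex, with black lines for the median of all other genes tested in each length class (bounds at 600, 1000, 2000 and 4000 nt). Members and other genes are both lowest among short transcripts, and Cycs (red) lies at -0.68 among long ones.

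The share of reads aligned to several places moved with genotype and with the members. Reads aligned to several places, which are not in the gene counts, made up 11.1%, 9.08%, 11.6% and 10.2% of counted reads in null replicates 1 to 4 and 13.1%, 13.8% and 12.2% in wild-type replicates 2 to 4. The wild-type libraries kept the same order in this share as in the share of reads in members, with replicate 3 highest and replicate 4 lowest, and replicates 2 and 4 were the lower pair in the null by both. With this share as a covariate beside genotype no member was called by edgeR, against 0.427% of all genes called lower (edgeR adjusted p of 0.319 for Cycs at -0.45, and 0.475 for Atp5g1 at -0.39). The covariate does not overlap between genotypes, so the 2 cannot be told apart. Members whose transcripts share no 50-base window with another gene's transcripts (36 tested, median length 810 nt) had a median of -0.34, and those with over 20% shared windows (19 tested, 731 nt) one of -0.40.

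**Figure D5:**
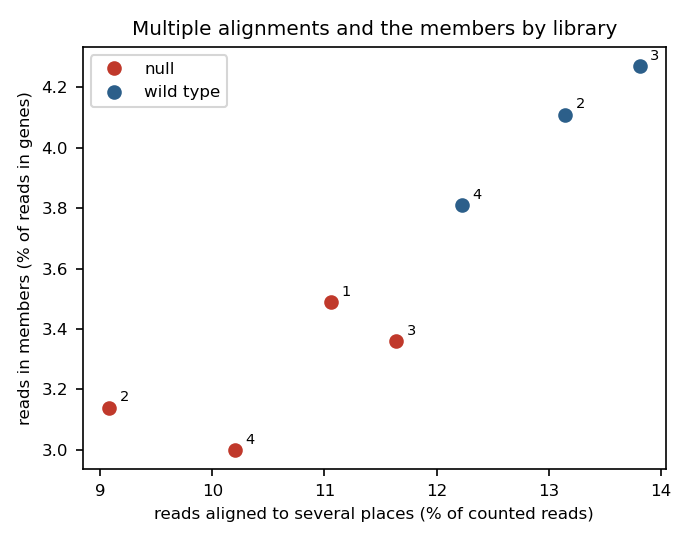
Share of reads in members (percent of reads in genes) against the share of reads aligned to several places (percent of counted reads) for each library, numbered by replicate; axes do not start at 0. Null libraries (red, 9.08% to 11.6%) and wild-type libraries (blue, 12.2% to 13.8%) do not overlap on either axis.

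Libraries of one genotype differed among themselves in a similar way for many members, which was not compared with all genes. After TMM scaling null replicate 4 was the lowest null library for 41 of 81 members and replicate 2 for 29, while replicates 1 and 3 were the highest for 40 and 36. Among wild-type libraries replicate 3 was highest for 61 members and replicate 4 lowest for 58. Wild-type replicate 4 also had the most red cell marker reads (22068 CPM), and null replicate 2 the most reads in no gene (14.2%). Without both, the median of the members was -0.38 and 2 were called lower, Cycs and Atp5g1, against 0.849% of all genes.

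Other genes of respiration did not all have such values. Of 45 tested assembly factors, which build the complexes without staying in them, 4 were called lower and 0 higher. Among all genes tested 2.13% were called lower and 4.11% higher. The median of the factors was -0.26 and 37 were under 0, against 47.7% of all genes. Those called were the complex I factors Ndufaf2 (log2 fold change -0.60, SE 0.135, edgeR adjusted p = 0.0229), Ndufaf4 (-0.59, SE 0.141, 0.0289) and Ndufaf5, listed as 2310003L22Rik (-0.57, SE 0.153, 0.0490), and Cox19 of complex IV (-0.55, SE 0.145, 0.0452). Ndufaf2 had 43.7 to 50.5 CPM in the null and 67.0 to 75.4 CPM in wild type. Of 17 enzymes of the citric acid cycle and pyruvate dehydrogenase none was called, 4 were under 0 and the median was 0.08. Citrate synthase (Cs) had 0.09 (SE 0.133). The transcripts of these enzymes ran from 1331 to 4127 nt. Other genes tested from 2000 to under 4000 nt also had a median of 0.08. The contrast with the shorter members was not tested apart from length. Of 18 regulators of mitochondrial biogenesis none was called (median -0.00), with 0.34 (SE 0.146, edgeR adjusted p = 0.180) for the coactivator Ppargc1a, 0.24 (SE 0.212) for Nrf1 and -0.11 (SE 0.129) for Tfam, which packages mitochondrial DNA. Of 23 carriers and partners 2 were called higher, Cox4i2 and Ndufa4l2 as given above, and 1 lower (4.11% and 2.13% of all genes). The 1 called lower was the ADP/ATP carrier Slc25a5 (-0.52, SE 0.140, edgeR adjusted p = 0.0496). It had 1528 to 2075 CPM in the null and 2527 to 2804 CPM in wild type. The heart and muscle carrier Slc25a4 had 0.06 (SE 0.128). Ppargc1a, Nrf1, Tfam, Cs and Slc25a4 were named after their values were seen.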

How the data were processed

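The authors deposited 1 table of raw read counts per gene for each of 7 libraries, and per the submitters' processing notes these were made with TopHat2 2.0.13, HTSeq and SAMtools on mm9, with the settings and annotation not given in the sources used here. Per the labels' protocols, ribosomal RNA was depleted and unstranded libraries were amplified for 8 cycles and sequenced as single 50-nt reads, so overlapping antisense genes cannot be separated. A further wild-type pool was left out by the authors for RNA quality.

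The 5 summary lines of each table were kept out of library sizes. They held 7.31% to 14.2% of counted reads in no gene and 9.08% to 13.8% aligned to several places. Counts of 23284 genes were fitted with edgeR 4.0.16 in R 4.3.3 (TMM scaling, filterByExpr with a minimum count of 10, quasi-likelihood F test, genotype as the only term, 5 residual degrees of freedom). The p-values were adjusted by Benjamini-Hochberg over all 14290 genes tested, with a call at an adjusted p under 0.05. SE is the standard error implied by that test, the absolute log2 fold change over the square root of its F statistic. CPM is a gene's count scaled to a common library total of reads in genes without a log. With 4 and 3 libraries, p-values set the genotype difference against the spread between these pools, estimated with information from all genes. SD and SE cover no other source of variation.

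The members and lists were chosen with earlier results of these data known, so no p is given for the list as a whole. Named genes were the called members, the most abundant member per kilobase and the highest and lowest fold change in each complex, isoform pairs, Ndufa4, the members next to the read threshold, called genes of the pathway lists (up to 4 per list), Cox4i1, Cox4i2, Ndufa4l2 and Hand2. Other members are named to account for them, except 1 that is counted in the sums and medians but not reported here by itself. Transcript lengths, GC content and promoters came from GENCODE and RefSeq on GRCm38.p6, matched by symbol for all 82 members. Length was that of the longest transcript with a RefSeq match, or else of the longest, and it was not required to be coding. Alternatives were RLE and upper-quartile scaling, DESeq2 1.42.0, other filters, each library left out, 2 libraries left out together, a replicate block, offsets for GC content and length, and the share of multiple alignments as a covariate. TMM-scaled CPM was added after the data were seen. The script was tested on simulated counts. Subunits encoded by mitochondrial DNA were not analysed here.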

Additional observations from a re-analysis of the deposited data

Results flagged for a closer look

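In a test for single libraries that stand apart (the gap of the extreme library to its neighbour over the range of the group, Dixon's ratio), the 4 null libraries were screened for all 81 tested members and for the sums of complexes and roles. Of 96 distinct sets of values, 6 passed the 95% limit, and chance passes about 1 in 20. Null replicate 4 was the low library for 4 of them. Cox7a1, the striated-muscle form of a complex IV subunit, had 78.2 CPM there against 117 to 121 CPM in the other null libraries, a ratio of 0.919. Ndufa7 had 190 CPM against 269.5 to 278 CPM (0.907), Uqcr11 265 CPM against 323 to 333 CPM (0.856) and Ndufb8 301 CPM against 351.5 to 361 CPM (0.835). Null replicate 3 was the low library for the other two. Ndufv1 had 178 CPM there against 226 to 231 CPM (0.899), and the summed level of the F1 head of complex V was 4715 CPM against 5143 to 5226 CPM (0.838). No cause was tested for any of them.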

How the results depend on the processing

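The number of members called lower (4) was 9 with RLE scaling, 14 with upper-quartile scaling, 24 with DESeq2, 13 with the stricter filter, 17 with the GC offset (2.44%, 2.62%, 5.42%, 3.01% and 3.39% of all genes were called lower in these fits, against 2.13%), 2 when null replicate 2 and wild-type replicate 4 were both left out, and 0 with the multiple-alignment covariate. Leaving out 1 library gave 0 to 26, and 0 to 1 called higher. The median log2 fold change was -0.15 with the length offset, -0.023 with the covariate, and -0.45 to -0.29 with a library left out. Same-numbered pools are not stated to share a litter or day. Their deviations had r across genes of -0.073 for replicate 2, 0.257 for replicate 3 and 0.166 for replicate 4. Replicates 3 and 4 correlated best with their own number and replicate 2 did not. These correlations cannot show whether the numbers pair the samples. With the replicate block 32 members were called lower (median -0.43), and 3.95% of all genes. Null replicate 1 has no wild-type library of its number, so in that fit it adds nothing to the genotype difference. Under the covariate 37 of the 81 members changed sign in log2 fold change, among them these of the 27 named by rule: Ndufb2 0.044, Sdha -0.44, Uqcrb 0.13, Uqcrc1 -0.20, Uqcr10 0.033, Cox7c 0.013, Atp5a1 -0.28, Cox6a1 0.21, Cox6a2 0.23, Cox7a2 0.12, Cox8a 0.24, Cox6b1 0.005, Atp5g2 0.51, Atp5g3 0.10 and Cox7a2l -0.14. The length offset reversed 6 members, Cox6a2 (0.035), Atp5g2 (0.028), Atp5a1 (-0.042), Ndufa7 (0.14), Ndufa6 (0.20) and Atp5d (0.06). Uqcrc1 was -0.004 with upper-quartile scaling, -0.021 with the GC offset, -0.060 with the replicate block and -0.064 to 0.112 with a library left out (below 0 in 4 of the 7 fits). Atp5a1 was -0.038 with the GC offset and -0.027 to 0.112 with a library left out (below 0 in 3 of the 7). Cox6b2 was -0.009 with RLE scaling and DESeq2, -0.014 with upper-quartile scaling, -0.058 with the GC offset, -0.028 with the replicate block and -0.209 and -0.081 without null or wild-type replicate 3. Cox8b was -0.151 to 0.468 with a library left out and -0.17 with the replicate block. The causes were not tested.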
